A study of Mus musculus with 12 samples.

Results

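Chemokine receptors are the membrane proteins through which macrophages and their monocyte precursors read chemokines and move toward them. The 6 receptors described here, Ccr1, Ccr2, Ccr3, Cx3cr1, Cxcr4 and Ccrl2, were taken by name from a fixed list and are 6 of the 54232 genes in the count table. No threshold on a measured value entered the rule, but the list was drawn up with earlier results of these data known. Each had 1 matching Ensembl gene ID, and all 6 passed the low-count filter that left 16281 genes for testing (at least 10 counts in at least 2 libraries).

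The cells were bone marrow derived macrophages (BMDMs) of wild-type C57BL/6 mice, per the methods 6 to 8 weeks old, grown from marrow in RPMI with 10% FBS and 50 ng/ml M-CSF and, per the labels, cultured for 5 days before treatment. All 6 groups shared this origin and held 2 libraries each of poly(A)-selected RNA. NS cells received neither tumor-conditioned medium (TCM) nor drug. NB9464 TCM and NBT3L TCM cells were treated for 24 h with medium conditioned by mouse neuroblastoma cells. NB9464 is a line with amplified MYCN and NBT3L a line without it. R788 cells received 500 nM of R788 (fostamatinib, an inhibitor of the tyrosine kinase Syk), and the groups NB9464 TCM + R788 and NBT3L TCM + R788 received the drug with either TCM. Each TCM came from a single cell line, so a difference between the media is a difference between 2 lines and not between MYCN states in general. NB9464 cells conditioned serum-free DMEM for 48 h. The preparation of NBT3L TCM, the medium given to NS cells and the R788 vehicle are not given in the sources used here, so an effect of tumor products cannot be told apart from one of base medium or serum. The libraries are named SJ1 to SJ12 as in the labels, which do not say whether replicates came from separate mice or cultures. The p values therefore measure only the spread between these libraries, which may be technical.

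Total counts were between 44977847 and 56449685 per library. Library SJ8, of the R788 group, had the highest total and 16149 detected genes, against 17275 to 18343 in the other 11 libraries, so R788 results without TCM are given with and without it. All 8 macrophage markers on the list (among them Adgre1, Csf1r and Cd68) had counts in every group, but their levels were not constant. Over the libraries Adgre1 was at 72140 to 394600 normalized counts, Csf1r at 90090 to 134300 and Cd68 at 36610 to 59530. The summed normalized count of 6 neuroblastoma markers was 0 in NS and no more than 71.1 in any library with TCM. Of 6 lymphocyte markers the sum was at most 29.99, and Ncr1 was at 0 throughout. The sum of 8 neutrophil markers moved with TCM, from 5614 to 6065 in NS to 8956 to 9029 with NB9464 TCM and 10660 to 10920 with NBT3L TCM. It was 4405 to 5665 with R788 alone, 7556 to 8392 with R788 in NB9464 TCM and 8265 to 8463 with R788 in NBT3L TCM. All 8 neutrophil markers had counts in NS. In NB9464 TCM 6 had counts, with Ly6g and Mpo at 0, and in NBT3L TCM 7, with Elane at 0. With R788, 7 had counts in each group. The marker at 0 was Ly6g without TCM and in NBT3L TCM, and Mpo in NB9464 TCM. Cxcr2, S100a8, S100a9, Ngp and Camp had counts in every library. S100a8 spanned the widest range of the 8 over the libraries, 670.6 to 8055 normalized counts. S100a9 was at 1595 to 2596, Ngp at 504.3 to 1804 and Camp at 177.4 to 365.8. Cxcr2 was lower with TCM, at 48.36 to 48.84 in NS against 11.48 to 29.73 with NB9464 TCM. With NBT3L TCM it was at 17.31 to 19.8. Neither difference passed the test (adjusted p = 0.261 and 0.194, DESeq2). The sum therefore does not show that the 8 markers rose as a set. The part of these markers in the receptor results was not tested.

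Most chemokine receptors have 7 membrane-spanning helices and signal through inhibitory G proteins. Ccr2 binds Ccl2, Ccl7 and Ccl12 and is known for releasing inflammatory monocytes from the bone marrow. Cx3cr1 binds fractalkine (Cx3cl1) and marks patrolling monocytes and many tissue-resident macrophages. Cxcr4 binds Cxcl12, which retains leukocytes in the marrow and guides them in tumors. Ccr1 binds Ccl3, Ccl5 and related inflammatory chemokines, and Ccr3 binds eotaxins and is best known from eosinophils. Ccrl2 is an atypical receptor that binds chemerin without G protein signaling and presents it to cells bearing the signaling receptor Cmklr1.

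In the annotation of mm10 used here (GENCODE M21), Ccr1 (ENSMUSG00000025804, chr9:123962124-123968692, minus strand), Ccr3 (ENSMUSG00000035448, chr9:124021972-124031689, plus strand) and Ccr2 (ENSMUSG00000049103, chr9:124101950-124113557, plus strand) lay within 151.4 kb. Ccr1l1, a Ccr1-like receptor gene, was the other protein-coding gene in that span. Cx3cr1 (ENSMUSG00000052336, chr9:119901616-120069879, minus strand) and Ccrl2 (ENSMUSG00000043953, chr9:111054486-111057519, minus strand) lay elsewhere on chromosome 9, and Cxcr4 (ENSMUSG00000045382, chr1:128588199-128592293, minus strand) on chromosome 1. An exon of Cx3cr1 overlapped the lincRNA Gm33858 on the other strand. Gm33858 had 0 to 38 counts per library, against 205 or more for Cx3cr1. Of the 50-base windows in Ccr2 transcripts, 1.91% occurred in transcripts of another gene. For Cx3cr1 the share was 1.06%, and Ccr1, Ccr3, Cxcr4 and Ccrl2 had 0 shared windows.

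The promoters of 4 of the receptors are shown because they set genes of 1 cluster that behaved differently side by side. Ccr1, Ccr3 and Ccr2 lie in the same cluster, with Ccr1l1 between Ccr1 and Ccr3, and Cxcr4 was the member that rose with R788 alone. Each line gives the 250 bases before the RefSeq start (GRCm38.p6), 5′ to 3′ on the strand of the gene, with matches to a searched motif in capitals. For Ccr2 the 2 annotations differ. Its GENCODE gene begins at 124101950, before the RefSeq start, so most of the stretch shown, with its motif match, lies inside the GENCODE gene.
Ccr1, minus strand, chr9:123968693-123968942: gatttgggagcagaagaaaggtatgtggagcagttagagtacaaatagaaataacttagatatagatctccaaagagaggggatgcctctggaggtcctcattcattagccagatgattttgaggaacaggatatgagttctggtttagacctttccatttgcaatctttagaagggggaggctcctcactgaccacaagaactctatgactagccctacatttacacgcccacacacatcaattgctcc
Ccr3, plus strand, chr9:124021721-124021970: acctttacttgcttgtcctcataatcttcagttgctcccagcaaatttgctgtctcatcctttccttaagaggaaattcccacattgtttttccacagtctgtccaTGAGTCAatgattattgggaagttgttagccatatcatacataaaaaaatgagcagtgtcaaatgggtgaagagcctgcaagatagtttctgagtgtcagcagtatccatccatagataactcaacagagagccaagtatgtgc
Ccr2, plus strand, chr9:124101933-124102182: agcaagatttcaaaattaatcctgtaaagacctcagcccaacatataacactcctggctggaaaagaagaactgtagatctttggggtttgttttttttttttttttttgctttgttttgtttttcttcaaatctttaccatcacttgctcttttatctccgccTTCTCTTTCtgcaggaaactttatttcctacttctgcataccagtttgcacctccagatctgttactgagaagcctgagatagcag
Cxcr4, minus strand, chr1:128592300-128592549: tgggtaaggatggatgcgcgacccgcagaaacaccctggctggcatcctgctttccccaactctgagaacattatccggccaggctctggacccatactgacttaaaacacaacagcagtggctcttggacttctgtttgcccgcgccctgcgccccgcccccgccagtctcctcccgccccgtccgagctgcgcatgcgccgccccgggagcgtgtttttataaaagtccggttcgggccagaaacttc

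All 6 members had a promoter window in the RefSeq table, and Ccrl2 had 3. The Cx3cr1 window lay inside its GENCODE gene. The motifs were searched for on either strand in windows of 300 bases (250 before and 50 after the start): GAAANNGAA, the core of interferon-stimulated response elements, TTCNNNGAA, the STAT motif, TGACTCA, the AP-1 motif, CACGTG, an E-box, and GAGGAAG, an ETS motif of the PU.1 kind. Ccr2 held GAAANNGAA from base 165 of its window, on the opposite strand and inside the GENCODE gene. This motif occurred in 8.56% of 32851 windows. Ccr3 held TGACTCA from base 107, likewise on the opposite strand, as did 5.20% of windows. No overlap of motifs was found. The windows of Ccr1, Cx3cr1, Cxcr4 and Ccrl2 held none of the searched letters, where TTCNNNGAA occurred in 8.30%, CACGTG in 7.15% and GAGGAAG in 13.63% of all windows. A match describes letters only and was not tested as a binding site.

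**Figure D1:**
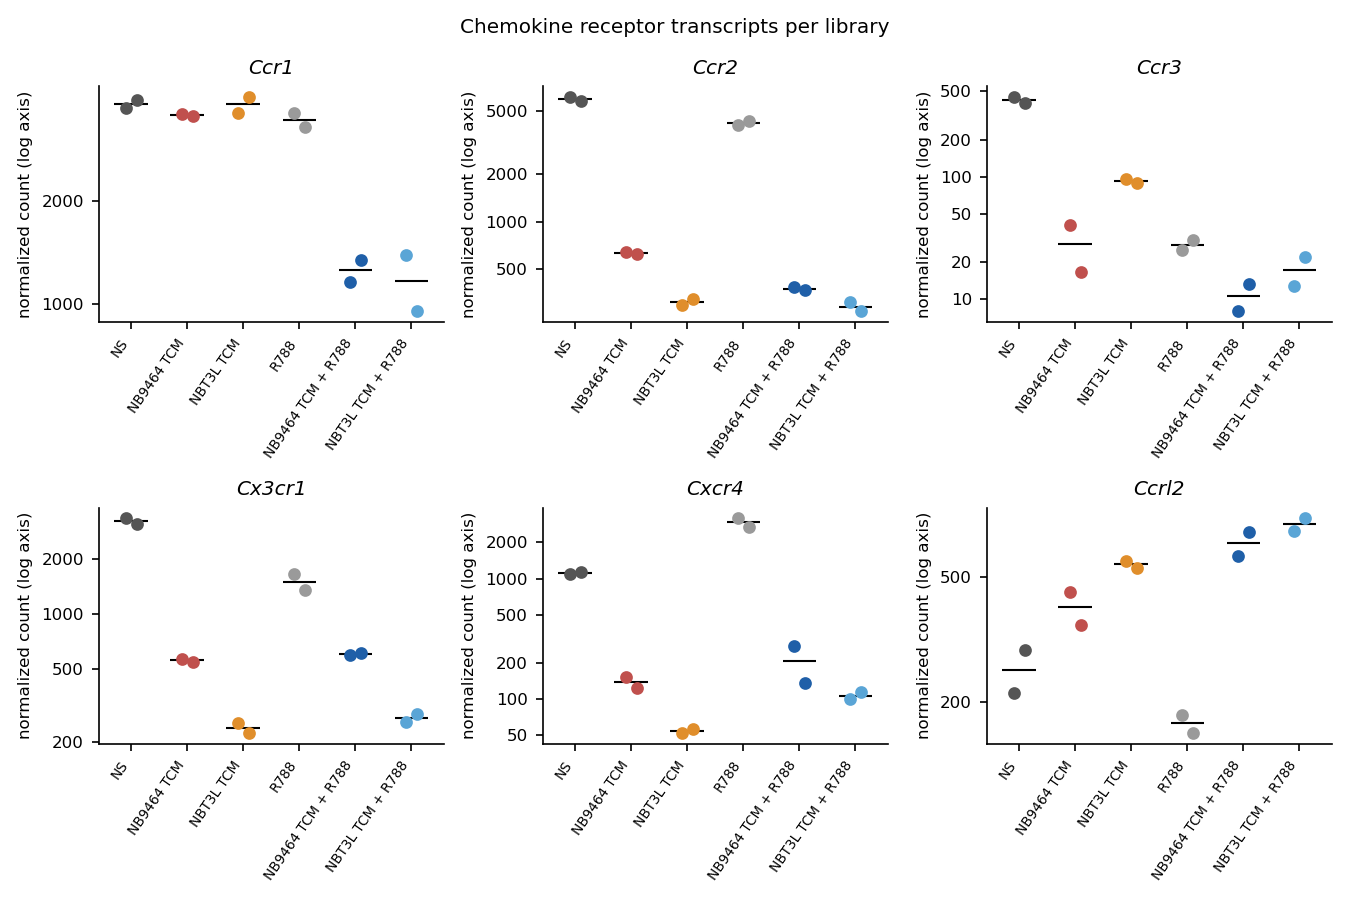
Normalized count (log axis) of each receptor in each of the 12 libraries, by group; points are libraries and the black line is the mean of the 2 libraries. Ccr1 is lower only in the groups with TCM and R788 together, Ccr2 and Cx3cr1 are low in every group with TCM, and Cxcr4 is highest with R788 alone.

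The comparison of each TCM with NS asked how medium of neuroblastoma cells changes the receptors that BMDMs transcribe. Ccr2, Cx3cr1, Cxcr4 and Ccr3 fell in either TCM, 4.59-fold to 20.7-fold, while Ccrl2 rose and Ccr1 did not pass the test. In either medium 5 of 6 receptors were called (adjusted p under 0.05), 1 higher and 4 lower. Over all genes tested, 34.1% were called with NB9464 TCM and 35.3% with NBT3L TCM. The median log2 fold change of the 6 receptors was -2.78 and -2.98, against 0.02 and 0.00 over all genes tested. In bulk RNA, fewer cells that transcribe a gene and less of its RNA per cell cannot be told apart. These comparisons share the NS libraries.

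Ccr2, the receptor of Ccl2, had the highest count of the 6 in NS. Normalized counts of 6189 and 5835 in NS compared with 641 and 627 after NB9464 TCM, and with 299.5 and 326 after NBT3L TCM. The groups did not overlap, and NBT3L TCM was the lowest of the 3. NB9464 TCM lowered Ccr2 9.48-fold (log2 fold change -3.25 ± 0.11, SE, adjusted p = 1.37e-204, DESeq2), and NBT3L TCM lowered it 19.2-fold (-4.26 ± 0.12, adjusted p = 7.88e-293). The summed normalized count of 4 monocyte markers (Ly6c2, Plac8, F13a1 and Chil3) was 8235 to 8305 per NS library, 7947 to 8033 with NB9464 TCM and 5034 to 5207 with NBT3L TCM. Their part in the Ccr2 result was not tested.

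Cx3cr1, the fractalkine receptor, had counts of 3349 and 3099 in NS. With NB9464 TCM it was at 565 and 549.9, and with NBT3L TCM at 254 and 224. Every library with TCM was thus below every NS library. It fell 5.78-fold with NB9464 TCM (log2 fold change -2.53 ± 0.14, SE, adjusted p = 1e-69) and 13.5-fold with NBT3L TCM (-3.76 ± 0.15, adjusted p = 1.95e-131).

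Cxcr4, the receptor of Cxcl12, had counts of 1099 and 1144 in NS, which compared with 151 and 124 after NB9464 TCM and with 52.0 and 56.3 after NBT3L TCM. The 3 groups did not overlap. It showed the steepest fall of the 6 with NBT3L TCM, 20.7-fold (log2 fold change -4.37 ± 0.27, SE, adjusted p = 1.3e-56). With NB9464 TCM the fall was 8.17-fold (-3.03 ± 0.24, adjusted p = 1.98e-34).

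Ccr3, the eotaxin receptor, was at 451 and 399 normalized counts in NS. NB9464 TCM left 40.2 and 16.7, and NBT3L TCM left 96.5 and 88.7. Ccr3 was the member whose fall was steeper with NB9464 TCM (log2 fold change -3.90 ± 0.47, SE, adjusted p = 2e-15) than with NBT3L TCM (-2.20 ± 0.45, adjusted p = 5.9e-06). The value with NB9464 TCM rested on libraries that lay far apart, and was -4.67 without SJ3 and -3.40 without SJ4. Of the eosinophil markers, Il5ra was at 0 throughout, and the 4 listed genes summed to between 28.9 and 102 normalized counts per library, 80.6 and 80.8 of them in NS. Their part in the Ccr3 result was not tested.

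Ccrl2, the chemerin-binding receptor, was the member that rose. Its counts were 213 and 291 in NS, and rose to 447 and 352 with NB9464 TCM and to 562 and 536 with NBT3L TCM, with no overlap with NS. The log2 fold change with NB9464 TCM was 0.66 ± 0.22 (SE, adjusted p = 0.00947), and that with NBT3L TCM was 1.12 ± 0.22 (adjusted p = 1.97e-06). The call in NB9464 TCM was lost without library SJ1 (0.45, adjusted p = 0.203) or SJ3 (0.48, adjusted p = 0.185). The call in NBT3L TCM held without any single library.

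Ccr1 had counts of 3721 and 3913 in NS. With NB9464 TCM they were 3559 and 3520, and with NBT3L TCM 3603 and 4008. NBT3L TCM overlapped NS, and NB9464 TCM lay just below it. The log2 fold changes were -0.11 (95% interval -0.37 to 0.15, adjusted p = 0.609) and 0.00 (-0.27 to 0.26, adjusted p = 0.989), so a fall of the size seen for the other receptors lies outside the intervals. Scaling by library totals, chosen after seeing the data, moved all genes by -0.13 with NB9464 TCM and -0.23 with NBT3L TCM on the log2 scale relative to the size factors used. Ccr1 was then at -0.24 in either medium and still not called (adjusted p = 0.167 and 0.152).

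**Figure D2:**
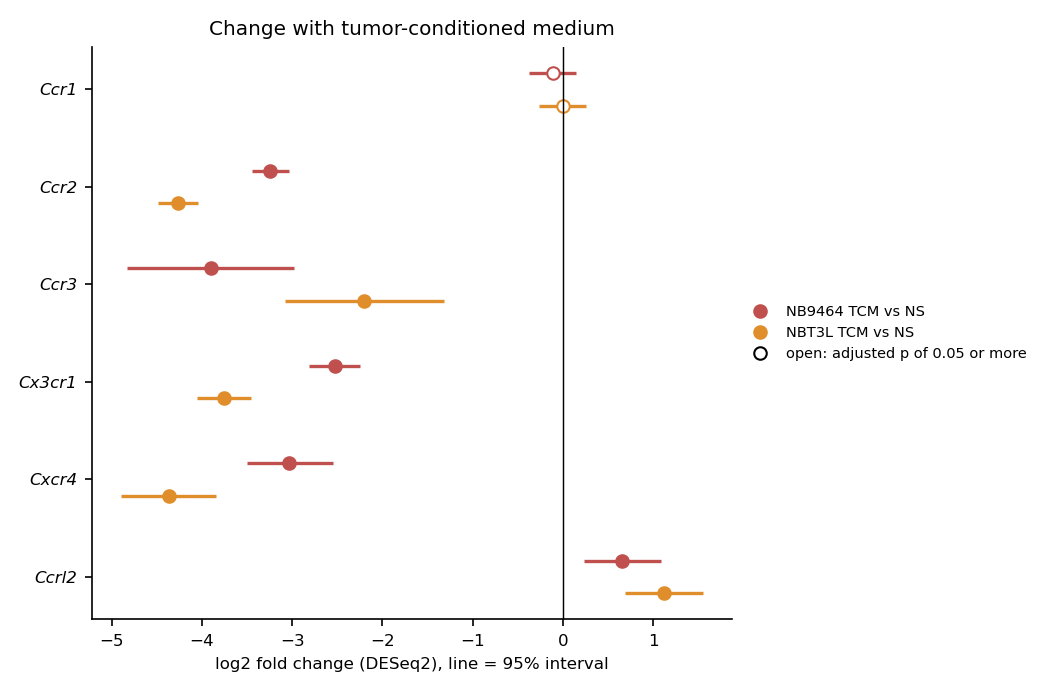
Log2 fold change (DESeq2) of each receptor with NB9464 TCM and NBT3L TCM against NS; points are estimates, lines 95% intervals, and open points have an adjusted p of 0.05 or more. Ccr2, Cx3cr1, Cxcr4 and Ccr3 lie between -2.20 and -4.37, Ccr1 at 0, and Ccrl2 above 0.

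The direct comparison of the media asked whether the line that conditioned the medium matters. Of the 6 receptors 4 were called between NB9464 TCM and NBT3L TCM (9.40% of all genes tested), 3 higher and 1 lower with NB9464 TCM. Ccr2 was 2.02-fold higher with NB9464 TCM (log2 fold change 1.02 ± 0.12, SE, adjusted p = 7.27e-15), Cx3cr1 2.34-fold higher (1.23 ± 0.16, adjusted p = 6.54e-13) and Cxcr4 2.53-fold higher (1.34 ± 0.28, adjusted p = 5.31e-05). Ccr3 was lower with NB9464 TCM (-1.71 ± 0.48, adjusted p = 0.00565). That call was lost without library SJ4 (-1.21, adjusted p = 0.182), SJ5 (-1.65, adjusted p = 0.0941) or SJ6 (-1.77, adjusted p = 0.064), and the value was -2.47 without SJ3. Ccr1 (-0.10, 95% interval -0.37 to 0.16) and Ccrl2 (-0.46, -0.88 to -0.03, adjusted p = 0.166) were not called. With R788 present in the 2 media, 3 receptors were called (9.62% of all genes), all higher with NB9464 TCM. Cx3cr1 was again higher (1.17 ± 0.15, adjusted p = 3.92e-12), as were Cxcr4 (0.96 ± 0.26, adjusted p = 0.0036) and Ccr2 (0.38 ± 0.13, adjusted p = 0.0307). The Cxcr4 call was lost without SJ9 (0.35, adjusted p = 0.568) or SJ11 (0.86, adjusted p = 0.0835). The Ccr2 call was lost without SJ1 (adjusted p = 0.0645), SJ2 (0.0626), SJ9 (0.217), SJ10 (0.0897) or SJ12 (0.411), at log2 fold changes of 0.28 to 0.41. It was also lost with counts divided by 2 (adjusted p = 0.0857) and with only the libraries compared (0.374), as was the Cxcr4 call with only the libraries compared (0.12).

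R788 without TCM addressed what this Syk inhibitor does to resting BMDMs. An effect through Syk cannot be told apart from one through another target or the vehicle. Ccr3 fell to a fraction of its NS level, Cx3cr1 and Ccr2 fell less, and Cxcr4 rose. Of the 6 receptors 5 were called, 1 higher and 4 lower, against 26.6% of all genes tested, and 4 without library SJ8. Ccr3 had counts of 25.4 and 30.3 with R788, a log2 fold change of -3.93 ± 0.47 (SE, adjusted p = 2.04e-15), or 15.2-fold lower, and of -4.06 (adjusted p = 6.21e-11) without SJ8. Cx3cr1 was at 1654 and 1355, 2.14-fold lower (-1.10 ± 0.14, adjusted p = 3.34e-14), and at -0.96 (adjusted p = 3.82e-09) without SJ8. Ccr2 was at 4094 and 4375, 1.42-fold lower (-0.51 ± 0.099, adjusted p = 3.68e-06), and at -0.56 (adjusted p = 4.44e-05) without SJ8. None of these libraries overlapped NS.

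Cxcr4 was the only member higher with R788 alone. Its counts of 3182 and 2711 were the highest of the 6 groups, 2.63-fold above NS (log2 fold change 1.39 ± 0.23, SE, adjusted p = 1.5e-08, and 1.5 without SJ8, adjusted p = 1.53e-06). Ccr1 was at 3588 and 3283, with -0.15 (95% interval -0.41 to 0.11, adjusted p = 0.447) and -0.09 without SJ8. Ccrl2 was at 182 and 159, below both NS libraries, with -0.57 ± 0.23 (adjusted p = 0.0428). The Ccrl2 call was lost without SJ8 (-0.47, adjusted p = 0.187) or SJ2 (-0.33, adjusted p = 0.455). It was also lost without SJ5, SJ6, SJ9, SJ10, SJ11 or SJ12, none of which belong to the compared groups (-0.57, adjusted p = 0.0571 to 0.0688), with library totals as size factors (-0.50, adjusted p = 0.0875) and with only the libraries compared (-0.56, adjusted p = 0.265).

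Ccr1 was the receptor that R788 lowered past the test only with TCM present. Neither TCM nor R788 alone moved it past the test. In NB9464 TCM its counts went from 3559 and 3520 to 1159 and 1347, and in NBT3L TCM from 3603 and 4008 to 1387 and 953. All 4 libraries with TCM and R788 lay below all 8 others. The log2 fold change with R788 was -1.5 ± 0.14 (SE, adjusted p = 5.5e-26), or 2.83-fold lower, in NB9464 TCM and -1.70 ± 0.14 (adjusted p = 2.15e-33), or 3.26-fold lower, in NBT3L TCM. The effect of R788 itself differed from that without TCM by -1.35 ± 0.19 (interaction, adjusted p = 1.33e-10) and -1.55 ± 0.19 (adjusted p = 7.47e-14).

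Of the 6 receptors, R788 changed 3 past the test in NB9464 TCM (1 higher, 2 lower, against 14.5% of all genes) and 3 in NBT3L TCM (1 higher, 2 lower, against 12.6%). Ccr2 fell further in NB9464 TCM, from 641 and 627 to 386 and 369.9 (log2 fold change -0.75 ± 0.12, SE, adjusted p = 9.71e-09). In NBT3L TCM it was at 311 and 271 with R788, overlapping 299.5 and 326 without it (-0.11, 95% interval -0.36 to 0.15). The effects in the 2 media differed by -0.64 ± 0.18 (interaction, adjusted p = 0.0413), a call that 0.706% of all genes and 1 of 6 receptors passed. It was lost without any of SJ1 to SJ6 or SJ9 to SJ11 (-0.54 to -0.70, adjusted p = 0.0622 to 0.444) and with the quasi-likelihood test of edgeR (adjusted p = 0.168).

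Ccr3 reached its lowest level with TCM and R788 together. In NBT3L TCM it went from 96.5 and 88.7 to 12.7 and 22.1 with R788 (log2 fold change -2.41 ± 0.51, SE, adjusted p = 5.18e-05). In NB9464 TCM it went from 40.2 and 16.7 to 7.96 and 13.3, groups that do not overlap but lie close (-1.43 ± 0.57, adjusted p = 0.0626). This was called without SJ4 (-1.93, adjusted p = 0.0191) or SJ7 (adjusted p = 0.0495), and among genes averaging at least 50 counts (adjusted p = 0.0419). Without SJ3 the value was -0.66. The fall with R788 was smaller in NB9464 TCM than without TCM by 2.50 ± 0.74 on the log2 scale (interaction, adjusted p = 0.00757), where counts near 10 limit the precision. That call was lost without SJ1 (2.42, adjusted p = 0.0719), SJ2 (2.59, adjusted p = 0.0539), SJ4 (2.0, adjusted p = 0.059) or SJ10 (2.09, adjusted p = 0.114), and the value was 3.26 without SJ3.

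Cx3cr1 fell with R788 alone but not with R788 in TCM. Its counts with R788 were 598 and 614 in NB9464 TCM and 256 and 284 in NBT3L TCM, slightly above the same medium without drug (log2 fold change 0.12, 95% interval -0.17 to 0.41, and 0.18, -0.14 to 0.50). The effect of R788 differed from that without TCM by 1.22 ± 0.20 with NB9464 TCM (interaction, adjusted p = 6.54e-08) and by 1.28 ± 0.21 with NBT3L TCM (adjusted p = 1.24e-07).

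Cxcr4 stayed low in TCM with R788. In NBT3L TCM its counts went from 52.0 and 56.3 to 98.6 and 114 (log2 fold change 0.97 ± 0.29, SE, adjusted p = 0.00771), without overlap. The call was lost without SJ5 (0.92, adjusted p = 0.0793), SJ6 (1.03, adjusted p = 0.0542) or SJ12 (0.86, adjusted p = 0.103) with edgeR (adjusted p = 0.0518) and with only the libraries compared (adjusted p = 0.143). In NB9464 TCM the R788 libraries were far apart, 276 in SJ9 and 136 in SJ10, and overlapped 151 and 124 without drug (0.59 ± 0.25, adjusted p = 0.0894). This value was 1.0 (adjusted p = 0.000315) without SJ10 and -0.02 without SJ9. The effect of R788 in TCM did not differ past the test from that without TCM (-0.81, 95% interval -1.47 to -0.14, adjusted p = 0.089, in NB9464 TCM, and -0.42, -1.14 to 0.30, adjusted p = 0.533, in NBT3L TCM). Without SJ9 the difference in NB9464 TCM was called (-1.41, adjusted p = 9.87e-05), as it was with library totals as size factors (-0.90, adjusted p = 0.0431).

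Ccrl2 moved with R788 in the opposite direction in TCM. In NB9464 TCM it rose from 447 and 352 to 584 and 698 (log2 fold change 0.68 ± 0.22, SE, adjusted p = 0.0117), a call lost without SJ4 (0.52, adjusted p = 0.199) or SJ10 (0.55, adjusted p = 0.212). In NBT3L TCM it was at 701 and 769.7, above 562 and 536 (0.42 ± 0.21, adjusted p = 0.189). The effect of R788 was higher than without TCM by 1.25 ± 0.31 with NB9464 TCM (interaction, adjusted p = 0.00102) and by 0.99 ± 0.31 with NBT3L TCM (adjusted p = 0.0158). The latter was lost without SJ2 (0.75, adjusted p = 0.183), SJ5 (1.03, adjusted p = 0.0566), SJ6 (0.96, adjusted p = 0.0863), SJ8 (0.89, adjusted p = 0.0653) or SJ12 (0.92, adjusted p = 0.116). In all, the effect of R788 differed from that without TCM for 4 of 6 receptors in NB9464 TCM (12.5% of all genes) and for 3 of 6 in NBT3L TCM (10.1%).

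**Figure D3:**
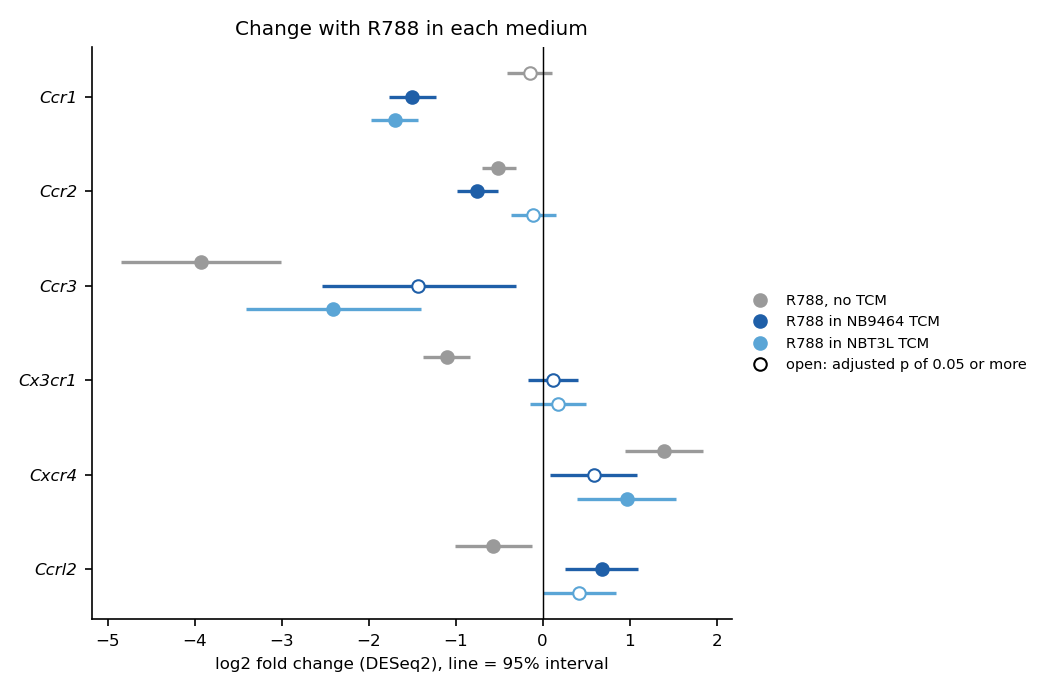
Log2 fold change (DESeq2) with R788 against the same medium without it, for cells without TCM or with either TCM; lines are 95% intervals and open points have an adjusted p of 0.05 or more. Ccr1 falls in the TCM groups alone (-1.5 and -1.7), Cx3cr1 falls without TCM alone (-1.10), and Ccrl2 lies below 0 without TCM and above 0 with it.

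With R788 present throughout, TCM against no TCM changed all 6 receptors for NB9464 (1 higher, 5 lower, against 40.4% of all genes) and 5 for NBT3L (1 higher, 4 lower, against 41.4%). Cxcr4 showed the steepest falls, 14.3-fold (log2 fold change -3.84 ± 0.24, SE, adjusted p = 3.91e-57) and 27.8-fold (-4.79 ± 0.25, adjusted p = 5.69e-82), the former at -4.44 without SJ9. Ccr2 fell 11.2-fold and 14.6-fold, Cx3cr1 2.48-fold and 5.57-fold, and Ccr1 2.74-fold and 2.94-fold. Ccrl2 rose 3.76-fold (1.91 ± 0.22, adjusted p = 7.7e-17) and 4.32-fold (2.11 ± 0.22, adjusted p = 1.68e-20). Ccr3, already low with R788, fell 2.64-fold in NB9464 TCM (adjusted p = 0.0351) and was at -0.68 in NBT3L TCM (95% interval -1.71 to 0.36). The Ccr3 call was lost without SJ1 (-1.40, adjusted p = 0.0779), SJ2 (-1.40, 0.0722), SJ8 (-1.27, 0.127) or SJ9 (-1.07, 0.248), with counts divided by 2 (-1.41, 0.0679) and with only the libraries compared (-1.38, 0.422). These comparisons share the R788 libraries, SJ8 among them, and without SJ8 the counts were 5 and 5.

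Ordered over the 6 groups by mean normalized count, Ccr2 and Cx3cr1 ran from NS through R788 to NB9464 TCM and NBT3L TCM with or without drug, and only the lowest pair of groups overlapped for Ccr2, and no pair for Cx3cr1. Cxcr4 was highest with R788, then NS, and the 2 groups with NB9464 TCM overlapped. Ccrl2 was highest in NBT3L TCM + R788 (735 ± 48.6, SD, n = 2) and lowest with R788 alone (170.3 ± 16.2), with no overlap between neighbours. For Ccr3, NB9464 TCM overlapped R788, and the 2 groups with TCM and drug overlapped each other. For Ccr1, NS overlapped NBT3L TCM, NB9464 TCM overlapped R788, and the 2 groups with TCM and drug overlapped each other.

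Levels of different receptors were compared per length, as TPM (counts divided by transcript length and scaled to the same sum in every library). In NS, Ccr1 was the most abundant (85.8 ± 1.17 TPM, SD, n = 2), followed by Ccr2 (56.7 ± 3.61), Cx3cr1 (45.6 ± 3.51), Cxcr4 (39.5 ± 0.244), Ccr3 (8.28 ± 0.893) and Ccrl2 (6.17 ± 1.22). No neighbours overlapped. With R788, Cxcr4 came first (109.4 ± 9.97 TPM), ahead of Ccr1 (81.5 ± 3.32). With either TCM, Ccr1 stayed first, at 66.8 ± 2.95 TPM in NB9464 TCM and 65.2 ± 4.86 in NBT3L TCM, and Ccrl2 moved from last to second, at 8.24 ± 1.67 and 10.25 ± 0.355. With TCM and R788 the distance between these narrowed, to 22.5 ± 3.15 TPM for Ccr1 and 12.55 ± 1.998 for Ccrl2 in NB9464 TCM + R788, and to 20.1 ± 5.34 and 13.75 ± 0.859 in NBT3L TCM + R788. Neighbours whose libraries overlapped were Cxcr4 and Ccr3 in NBT3L TCM, and Cx3cr1 and Cxcr4 in either TCM with R788.

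**Figure D4:**
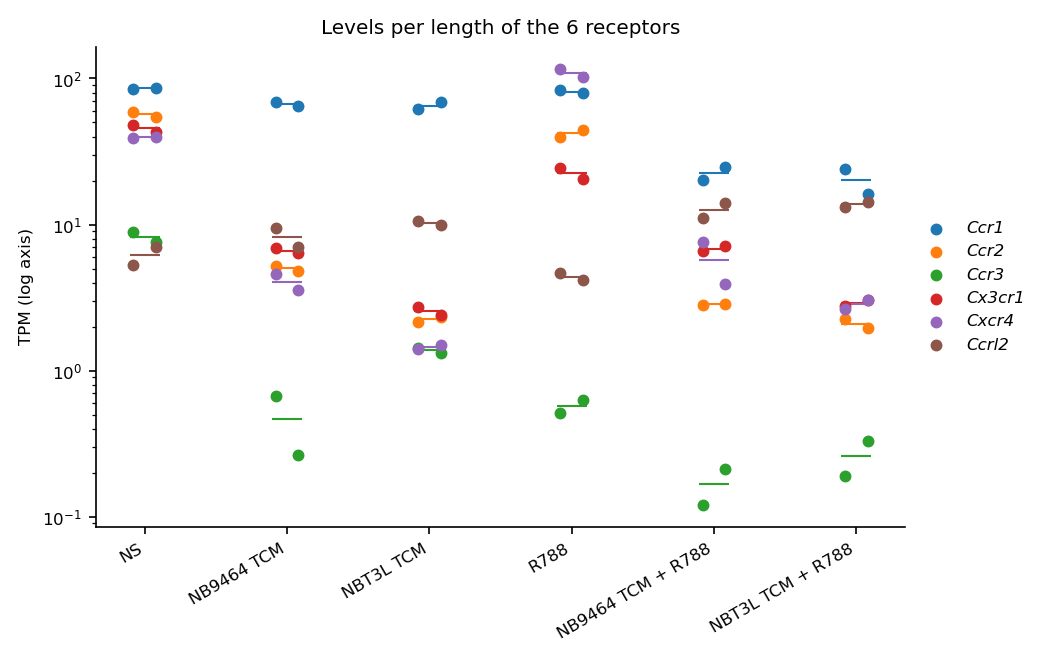
Level per length (TPM, log axis) of the 6 receptors in each library by group; points are libraries and bars the mean of the 2 libraries. Cxcr4 is first with R788 alone, Ccr1 is first in the other groups, and Ccrl2 is second in every group with TCM.

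Of 13 listed ligands, 11 passed the filter. NB9464 TCM raised 4 and lowered 1, where 34.1% of all genes were called (median log2 fold change of the 11, 0.32, against 0.02 over all genes), and NBT3L TCM raised 6 and lowered 0, where 35.3% were called (median 0.98, against 0.00). Without ligands at 0 in a whole group the medians were 0.52 and 1.23. Ccl2, the main ligand of Ccr2, went from 24530 ± 1785 normalized counts in NS to 57930 ± 558 with NB9464 TCM and 89220 ± 868 with NBT3L TCM (SD, n = 2). Its log2 fold change was 1.24 ± 0.086 (SE, adjusted p = 2.9e-45) and 1.86 ± 0.086 (adjusted p = 1.74e-101). Ccl7, shared by Ccr1, Ccr2 and Ccr3, rose by 1.20 and 2.13, and Ccl3, a ligand of Ccr1, from 2117 ± 129.7 to 26070 ± 552 and 32460 ± 1013.

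R788 lowered 6 of the 11 ligands and raised 1 in cells without TCM and in NB9464 TCM, and lowered 7 and raised 1 in NBT3L TCM. Over all genes, 26.6%, 14.5% and 12.6% were called in these comparisons. The median log2 fold changes were -1.40, -0.98 and -1.12, against 0.00 over all genes, and -1.09, -0.98 and -1.18 without ligands at 0 in a whole group. The ligands of Ccr2 fell in all 3 settings. The log2 fold changes were -2.85, -2.61 and -2.20 for Ccl2 and -4.46, -4.34 and -4.36 for Ccl12, while Ccl7 went to 966 ± 24.6, 1716 ± 5.75 and 6461 ± 258 normalized counts. Ccl6 and Ccl9, ligands of Ccr1, fell in NB9464 TCM (-0.98 and -0.84, adjusted p = 6.96e-29 and 3.13e-65) and NBT3L TCM (-1.0 and -1.25, adjusted p = 5.7e-30 and 2.59e-146). Without TCM, Ccl6 was at 0.13 (adjusted p = 0.255) and Ccl9 at -0.48 (adjusted p = 6.27e-22). Cxcl12, the ligand of Cxcr4, was the ligand that rose with R788, by 1.95 ± 0.53 without TCM (SE, adjusted p = 0.00139), 2.25 ± 0.56 in NB9464 TCM (adjusted p = 0.00072) and 1.54 ± 0.53 in NBT3L TCM (adjusted p = 0.0266), at no more than 142 normalized counts in any library. The summed count of 5 stromal markers (Col1a1, Col1a2, Col3a1, Dcn and Pdgfrb), all with counts in every group, went from 1294 to 1652 in NS to 2637 to 3021 with R788, from 1555 to 1716 to 2224 to 2453 in NB9464 TCM, and from 1925 to 2136 to 3406 to 3514 in NBT3L TCM. Their part in the Cxcl12 result was not tested.

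**Figure D5:**
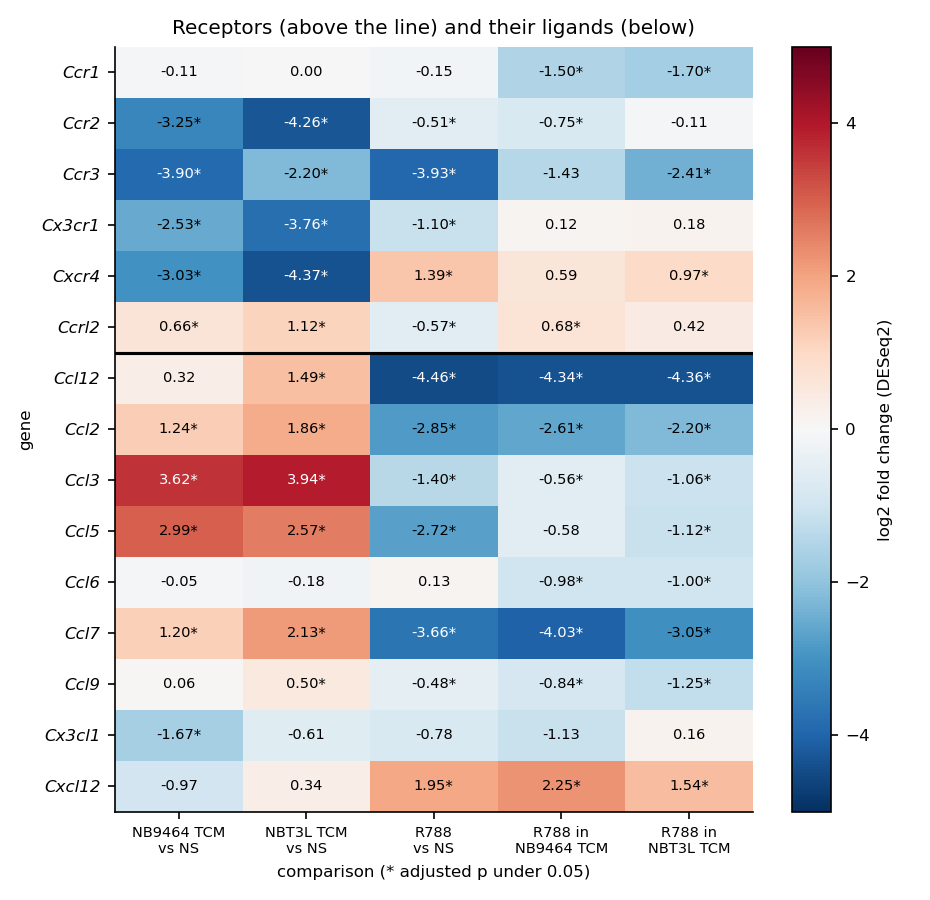
Log2 fold change (DESeq2, color and printed value) of the 6 receptors above the line and of the 9 ligands with a mean of at least 50 normalized counts below it, in 5 comparisons; stars mark an adjusted p under 0.05. Ccl2 and Ccl7 are above 0 where Ccr2 is far below 0 (with TCM), and Cxcl12 is above 0 in all 3 R788 comparisons.

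Of 20 other chemokine receptors 15 were tested. NB9464 TCM raised 2 and lowered 3 (median log2 fold change 0.87, against 0.02 over all genes), and NBT3L TCM raised 3 and lowered 3 (median 1.18, against 0.00 over all genes, and 1.24 without genes at 0 in a whole group). These shares lie near the 34.1% and 35.3% of all genes called. With R788 the median was -0.28 in cells without TCM, and with TCM present it was 0.08 (NB9464) and -0.01 (NBT3L). Cxcr3 fell with TCM (-2.92 and -3.03, adjusted p = 2.24e-16 and 4.96e-17). Ccr1l1, the neighbour of Ccr1, went from 18.0 and 31.9 in NS to 0 in all 4 libraries with TCM alone. Against a floor of 3 counts per library it was at least 8.83-fold lower with NB9464 TCM and at least 7.18-fold lower with NBT3L TCM. Cmklr1, the signaling receptor to which Ccrl2 presents chemerin, rose with TCM, from 1721 ± 52.3 to 3452 ± 436 and 4232 ± 132 (1.0 ± 0.099 and 1.30 ± 0.099, adjusted p = 7.84e-23 and 1.04e-37). It also rose with R788 alone (0.84 ± 0.099, adjusted p = 6.29e-16). Chemerin itself (Rarres2) did not pass the filter, with at most 12.4 normalized counts.

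All 34 listed genes of receptor signaling (G protein subunits, arrestins, receptor kinases, RGS proteins and regulators of migration) were tested. NB9464 TCM raised 12 and lowered 11, NBT3L TCM raised 11 and lowered 12, and R788 alone raised 12 and lowered 8, where 34.1%, 35.3% and 26.6% of all genes were called. In NB9464 TCM R788 raised 15 and lowered 5, and in NBT3L TCM it raised 15 and lowered 6, where 14.5% and 12.6% of all genes were called. The median log2 fold changes with either TCM and with R788 alone, -0.02, 0.02 and 0.03, lay near those of all genes. With R788 in NB9464 TCM and NBT3L TCM they were 0.16 and 0.13, against -0.003 and 0.003 over all genes. Of all genes, 5.79% and 5.33% were higher and 8.70% and 7.24% lower in these 2 comparisons. The largest changes with TCM were of Rgs2 (-3.65 ± 0.14 and -3.53 ± 0.14, SE, adjusted p = 1.35e-154 and 6.77e-142) and Rgs1 (-3.18 ± 0.19 and -2.87 ± 0.19, adjusted p = 2.2e-60 and 2.71e-49), which switch off G protein signals downstream of receptors. With R788 alone the largest were of Rgs1 (-1.90 ± 0.18, adjusted p = 2.87e-23) and Gnb4, a G protein subunit (-1.10 ± 0.25, adjusted p = 0.000106).

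The genes whose profiles over the 12 libraries were most like each receptor were named by the smallest root-mean-square difference of centred log2(normalized count + 1) values among 10710 genes. This is a description, and the points share libraries and groups. For Ccr1 these were Siglec1, a macrophage sialic acid receptor (0.289), and Ccl6 (0.316), against a spread of 0.769 for Ccr1 itself. For Ccr2 they were Sapcd2 (0.393) and Aspm, a mitotic spindle protein (0.456), against 1.79. For Ccr3 they were the interferon-induced genes Ifit2 (0.505) and Ifit3 (0.664), against 1.78. For Cx3cr1 they were Col4a5, a basement membrane collagen (0.287), and Plekhh2 (0.393), against 1.32. For Cxcr4 they were St6gal1, a sialyltransferase (0.579), and Cbr2 (0.684), against 2.02. For Ccrl2 they were Pgap2 (0.192) and Rcl1 (0.216), against 0.765.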

How the data were processed

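RNA sequencing counts of 12 BMDM libraries in 6 groups of 2 were used. The authors deposited whole-number read counts per Ensembl gene, not normalized for depth or length. The submitters' processing notes name STAR 2.6.1d, Salmon 1.4.0, SAMtools 1.9, Picard 2.26 and MultiQC 1.11, and the build mm10. Which program made the deposited counts, and whether strand was used, was not given in the sources used here. Among counts from 1 to 40, 65.2% to 67.9% were even, as when mates are counted separately, so counts divided by 2 were an alternative. The methods state triplicates and single reads, the labels 2 libraries per group and paired reads.

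Symbols and 1-based positions came from GENCODE M21, which held 54165 of the 54232 IDs. DESeq2 1.42.0 in R 4.3.3 was fitted once to group means of all 12 libraries (median-of-ratios size factors, two-sided Wald tests, unshrunken log2 fold changes, Benjamini-Hochberg adjustment within each comparison, calls at adjusted p under 0.05) and was tested on simulated data first. Normalized counts are counts divided by size factors. TPM used the lengths in the table. Intervals are 95% Wald intervals. Alternatives included edgeR 4.0.16 and leaving out each library.

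The members and gene lists were chosen with earlier results of these data known. Named genes were the members, receptors and ligands of the lists, the 2 signaling genes with the largest called change per comparison (averaging 100 normalized counts or more), plus the 2 genes most like each member. Chemokine ligand adjusted p values too small to be represented are not printed. Some listed genes are not reported here.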

Additional observations from a re-analysis of the deposited data

Results flagged for a closer look

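Flagged were receptors for which the effect of R788 differed between media by a test of the difference itself (interaction contrast of DESeq2, n = 2 libraries per group, adjusted over all 16281 genes).

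The effect of R788 on Ccr1 was lower in NB9464 TCM than without TCM by -1.35 (adjusted p = 1.33e-10) and in NBT3L TCM by -1.55 (adjusted p = 7.47e-14) on the log2 scale. For Cx3cr1 it was higher by 1.22 (adjusted p = 6.54e-08) and 1.28 (adjusted p = 1.24e-07). These 4 differences remained past the threshold in each of the 12 fits that left out a library and in each of the 7 other alternatives.

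For Ccrl2 the effect of R788 was higher in NB9464 TCM by 1.25 (adjusted p = 0.00102), which also held in all of them, and in NBT3L TCM by 0.99 (adjusted p = 0.0158), which was lost in 5 of the 12 fits without a library (SJ2, SJ5, SJ6, SJ8 or SJ12, at 0.75 to 1.03). For Ccr3 it was higher in NB9464 TCM by 2.50 (adjusted p = 0.00757), lost in 4 of the 12 (SJ1, SJ2, SJ4 or SJ10, at 2.0 to 2.59). For Ccr2 it was lower in NB9464 TCM than in NBT3L TCM by -0.64 (adjusted p = 0.0413), lost in 9 of the 12 (SJ1 to SJ6 and SJ9 to SJ11). Groups of 2 libraries were too small for an outlier test of single libraries.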

How the results depend on the processing

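Of 72 results (6 receptors in 12 comparisons), 47 were called. Of these, 36 stayed called and 22 of the others stayed uncalled in every alternative: edgeR, DESeq2 with TMM factors, all genes without a filter, only genes averaging 50 counts, library totals as size factors (chosen after seeing the data), counts divided by 2, a fit of only the libraries compared, and each of 12 libraries left out. Another 11 calls were lost and 3 gained in at least 1 of them. The difference between media in the effect of R788 was called for 1 receptor, Ccr2, and for 0 with edgeR (adjusted p = 0.168), with counts divided by 2 (0.113) and with only the libraries compared (no adjusted p), and for 0 to 1 with a library left out. Between NB9464 TCM + R788 and NBT3L TCM + R788, 3 receptors were called, 2 with counts divided by 2, 1 with only the libraries compared and 1 to 3 with a library left out. Those that changed sign when a library was left out were all uncalled. They were Ccr1 with NBT3L TCM (-0.08 to 0.07) and between the 2 TCM + R788 groups (-0.15 to 0.39), Cxcr4 with R788 in NB9464 TCM (-0.02 to 1.0), and the difference between media in the effect of R788 on Ccr1 (-0.04 to 0.50), Cx3cr1 (-0.15 to 0.03) and Cxcr4 (-0.99 to 0.04). With only the libraries compared, or a library left out, fewer samples set the dispersion, and otherwise the cause was not tested. Over all genes, the calls for the difference between media in the effect of R788 numbered 115, against 21 with edgeR, 272 with only the libraries compared and 46 to 234 with a library left out. For the other comparisons, counts over all genes moved by over 1.5 times only when a library was left out: to as few as 1432 from 2359 for R788 in NB9464 TCM, 1173 from 2046 for R788 in NBT3L TCM, 795 from 1531 between the media, 852 from 1567 between the media with R788, and 1344 from 2032 for the difference of the R788 effect in NB9464 TCM from that without TCM. The same difference in NBT3L TCM ran from 1038 to 2583, against 1649. The order of receptors per length was the same with normalized counts per kilobase. This is no check, because the 2 measures divide the same counts by the same lengths and cannot order receptors differently within a library. With a pseudocount of 10 the gene most like each receptor was the same, and the gene after it differed for Ccr1, Ccr3 and Ccrl2. No paired analysis was possible because the groups share no replicate numbers. Counts under about 30 (Ccr3 with R788) limit precision most.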
